A study of Mus musculus with 48 samples.

Results

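The proteasome genes of the mouse dentate gyrus were followed after intrahippocampal kainate: 45 genes of the 55357 in the count table. They were all protein-coding genes whose symbol begins with Psma, Psmb, Psmc, Psmd or Psme and that reached 10 counts in at least 4 libraries. Of 51 genes with such a symbol, 6 were left out: 5 pseudogenes and Psmb11, the thymus-specific catalytic subunit, which reached 10 counts in 1 library. All 45 passed the filter on low counts that was applied to the whole table, so no gene of the group is missing from the tests. They were read as 5 immunoproteasome genes (Psmb8, Psmb9, Psmb10, Psme1 and Psme2), 31 constitutive subunits and 9 others. The constitutive subunits were 7 of the 20S alpha ring, 7 of the 20S beta ring, 6 ATPases and 11 non-ATPase subunits of the 19S cap. Among the 9 others, 2 carry the prefix without being subunits.

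Mice of the C57BL/6J wild-type strain, 6 to 8 weeks of age per the series record and slightly older per the study's methods, received kainate or saline into 1 hippocampus, and the dorsal dentate gyrus of each side was collected at day 3, 7 or 14. Tissue of the injected side is called the epileptogenic zone (EZ) and that of the other side the peri-ictal zone (PIZ). Each of the 12 groups held 4 libraries from 4 separate mice (2 male, 2 female), with both sides of a mouse sequenced, and every kainate mouse had shown behavioural seizures after the injection. In this model kainate is known to kill neurons near the injection and to activate glia, and the tissue was a bulk dissection with no sorted cells. Library totals ran from 17762656 to 25712975 counts, and 21390 genes were tested. Prox1, C1ql2, Calb1, Dsp, Stxbp6 and Tdo2, which mark dentate granule cells, had more than 3 counts in all 48 libraries. Expression is given as CPM, counts scaled to a common library size with TMM factors, and each set of 4 values follows ascending mouse number. A gene was called where the adjusted p of edgeR's quasi-likelihood test was under 0.01, and a differentially expressed gene (DEG) also had to change by more than 1.5-fold. Differences are log2 fold changes of kainate over saline ± SE, n = 4 against 4.

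The 26S proteasome degrades ubiquitin-tagged proteins. Its 20S core is a barrel of alpha and beta rings in which Psmb5, Psmb6 and Psmb7 carry the proteolytic sites, and the 19S cap recognizes, unfolds and feeds in the substrate. Under interferon, cells assemble cores with Psmb8, Psmb9 and Psmb10 in place of Psmb5, Psmb6 and Psmb7, and the PA28 activator of Psme1 and Psme2 can cap the core instead of 19S. This immunoproteasome favours peptides that fit MHC class I, and in the brain it is known mainly from microglia and other glia under inflammation.

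The promoter windows of 4 of these genes are shown because the genes moved in different ways, and because Psmb9 shares its start region with a peptide transporter gene that is described with the partners. Each window runs from 250 bases before to 50 bases after the transcription start, 5′ to 3′ on the gene's strand, from RefSeq on GRCm38.p6, where 38 of the 45 genes had an entry. Capitals mark any match, on either strand, of 4 motifs: the interferon-stimulated response element written as GAAA, a gap of 2 bases and GAAA again, the gamma-activated site written as TTCNNNGAA, the CCAAT box, and the antioxidant response core written as TGACNNNGC. Of 32851 RefSeq windows of the same length, these letters were in 3.44%, 8.30%, 37.4% and 12.4%, respectively. Psmb8 lies at chr17:34197945-34198244 on the plus strand, Psmb9 at chr17:34187281-34187580 on the minus strand, Psme1 at chr14:55578244-55578543 on the plus strand and Psmb6 at chr11:70525107-70525406 on the plus strand.
Psmb8: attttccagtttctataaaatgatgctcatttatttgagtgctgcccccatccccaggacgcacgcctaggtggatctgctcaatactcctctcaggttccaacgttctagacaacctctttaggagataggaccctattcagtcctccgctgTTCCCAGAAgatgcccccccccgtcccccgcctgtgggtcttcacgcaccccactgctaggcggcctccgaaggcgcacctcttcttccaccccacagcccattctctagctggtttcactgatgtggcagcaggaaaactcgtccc
Psmb9: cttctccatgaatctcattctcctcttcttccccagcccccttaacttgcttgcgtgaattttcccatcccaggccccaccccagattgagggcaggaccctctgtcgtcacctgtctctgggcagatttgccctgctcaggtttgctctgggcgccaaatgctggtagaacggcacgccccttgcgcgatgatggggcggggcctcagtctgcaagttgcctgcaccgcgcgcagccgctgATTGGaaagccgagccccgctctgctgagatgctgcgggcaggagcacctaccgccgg
Psme1: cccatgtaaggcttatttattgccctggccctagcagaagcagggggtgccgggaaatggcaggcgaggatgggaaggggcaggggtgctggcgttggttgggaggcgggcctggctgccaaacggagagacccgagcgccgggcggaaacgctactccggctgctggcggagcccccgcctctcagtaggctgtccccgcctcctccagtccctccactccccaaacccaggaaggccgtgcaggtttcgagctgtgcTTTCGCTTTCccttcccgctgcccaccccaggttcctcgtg
Psmb6: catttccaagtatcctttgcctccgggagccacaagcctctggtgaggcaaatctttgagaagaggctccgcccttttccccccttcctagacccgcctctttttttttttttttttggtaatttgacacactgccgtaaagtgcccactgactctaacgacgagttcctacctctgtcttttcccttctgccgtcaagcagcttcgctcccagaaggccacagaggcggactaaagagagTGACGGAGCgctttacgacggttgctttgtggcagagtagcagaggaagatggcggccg
In these windows the gamma-activated letters stood in Psmb8, a CCAAT box in Psmb9, the interferon-response letters in Psme1 and the antioxidant letters in Psmb6. The windows of Psmb10 and Psme2 held none of the 4 motifs. Among the 25 constitutive subunits with an entry, the motifs were in 2, 1, 10 and 4, in the order given above. A match says only that the letters are present.

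Of the 45 genes, 17 were called higher and 1 lower in the EZ at day 3, and 10 higher and 3 lower at day 7, where 20.5% and 25.9% of all tested genes were called higher and 14.7% and 19.7% lower. All 5 immunoproteasome genes were among those called higher at both days. Each of the 5 was a DEG at day 3 and again at day 7, where 16.1% and 20.6% of all tested genes were DEG in that direction. The chymotrypsin-like immune subunit Psmb8 lies with Psmb9, Tap1 and Tap2 in the MHC class II region of chromosome 17 (34416690 to 34420428, GRCm39). At day 3 it measured 3.05, 7.29, 4.24 and 3.85 CPM in the 4 EZ libraries of saline mice and 18.7, 36.5, 27.6 and 19.4 CPM in those of kainate mice. The groups did not overlap, and the lowest kainate library was above the highest saline library, that of mouse 29. The difference was 2.47 ± 0.42, or 5.53-fold (adjusted p = 1.16e-05). At day 7 the values were 3.93, 3.43, 3.15 and 4.1 CPM with saline and 82.0, 25.8, 44.6 and 51.1 CPM with kainate. Here mouse 21 stood highest and mouse 23 lowest of the kainate mice, and all 4 were far above saline. The difference reached 3.80 ± 0.44, or 13.9-fold (adjusted p = 2.83e-08).

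Psmb9, the caspase-like position's immune replacement, lies on the minus strand of the same region (chromosome 17, 34400960 to 34406738). In the EZ at day 7 it was at 1.74, 1.87, 1.86 and 1.22 CPM with saline and 25.9, 9.38, 16.6 and 17.6 CPM with kainate, again without overlap. It differed by 2.46 ± 0.35 at day 3 (adjusted p = 1.21e-06) and by 3.37 ± 0.36 at day 7 (adjusted p = 1.61e-08). Psmb10, which replaces Psmb7 and lies on chromosome 8 (106662362 to 106665077), moved less. It was at 16.1, 14.6, 14.4 and 16.3 CPM with saline and 47.4, 27.4, 37.8 and 36.5 CPM with kainate at day 7. No library of one group entered the range of the other. Its differences were 0.89 ± 0.16 at day 3 (adjusted p = 2.47e-05) and 1.28 ± 0.16 at day 7 (adjusted p = 5.15e-08).

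The subunits of the PA28 activator, Psme1 and Psme2, are neighbours on chromosome 14 (55815190 to 55822034 and 55824895 to 55829173) and moved by similar amounts. At day 7 in the EZ, Psme1 was at 20.5, 18.5, 19.4 and 18.5 CPM with saline and 81.7, 34.4, 52.4 and 61.9 CPM with kainate. Psme2 was at 13.8, 15.2, 13.4 and 14.5 CPM with saline and 55.0, 26.8, 32.1 and 40.2 CPM with kainate. In both genes mouse 21 was the highest and mouse 23 the lowest kainate mouse, as it was for Psmb8, Psmb9 and Psmb10, and kainate and saline did not overlap. Psme1 differed by 0.92 ± 0.19 at day 3 and 1.58 ± 0.20 at day 7 (adjusted p = 0.00019 and 4.59e-08). Psme2 differed by 0.87 ± 0.16 and 1.44 ± 0.16 (adjusted p = 3.13e-05 and 2.21e-08). The median difference of the 5 genes was 0.92 at day 3 and 1.58 at day 7, while that of all tested genes was 0.03 and 0.01. All 5 calls at each of these days held with each mouse left out and under every alternative tried.

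Glia changed in the same libraries. The summed level of 8 microglia markers in the EZ was 527 to 895 CPM with saline and 1297 to 2184 CPM with kainate at day 3, and 442 to 483 against 1591 to 5794 CPM at day 7. Of those 8 markers, 7 were called higher at day 3 and 8 at day 7. Among kainate mice at day 7 the sum was 5794, 1591, 2273 and 4148 CPM in mice 21, 23, 26 and 35, so mouse 21 was again the highest and mouse 23 the lowest. Markers of neurons moved the other way, with 4 of 5 called lower at day 7 and summed levels of 3376 to 4546 CPM with saline and 951 to 2248 CPM with kainate. Of the 6 granule cell markers, 3 were called lower at each of these days. Of the 4 endothelium markers, 3 were called higher at each of these days too. Their sums were 122 to 151 CPM with saline and 172 to 271 CPM with kainate at day 3, and 110.1 to 144 against 112 to 243 CPM at day 7. Of the 5 oligodendrocyte markers, 0 were called at day 3 and 1 was called higher at day 7. Their day 7 sums were 2365 to 5020 CPM with saline and 3179 to 9398 CPM with kainate, overlapping. Lymphocyte markers were near 0: Cd3e never exceeded 12 counts, and 1 of 7 T and NK cell markers (Cd4) and 0 of 3 B cell markers passed the filter on low counts. The summed T and NK cell markers still went from 0.174 to 0.464 CPM with saline to 1.33 to 5.49 CPM with kainate at day 7. They were again highest in mouse 21 and lowest in mouse 23. This order was not particular to these lists, as the endothelium sum also had it. The oligodendrocyte and astrocyte sums were highest in mouse 21 and lowest in mouse 26. Neuron sums (951 and 2248 CPM) and granule cell sums (166.5 and 807.7 CPM) were lowest in mouse 21 and highest in mouse 23. The 4 monocyte and neutrophil markers summed to 7.77 to 12.4 CPM with saline and 14.99 to 39.71 CPM with kainate at day 3, without overlap, and to 8.21 to 10.8 against 10.6 to 21.5 CPM at day 7, where the ranges overlapped. The 3 choroid plexus markers summed to 17.4 to 21.1 CPM with saline and 6.27 to 8.59 CPM with kainate at day 3, and to 20.3 to 28.5 against 3.24 to 12.2 CPM at day 7, without overlap and with 1 of 3 called lower at each day. The choroid plexus sum, here and below, was mostly that of Kl. Its mean was 17.03 CPM over all libraries, against 0.836 CPM for Ttr and 0.139 CPM for Folr1. The part of these cells in the rise of the immunoproteasome genes was not tested. In a bulk tissue, more cells of a type and more RNA per cell cannot be told apart, nor can fewer cells and less RNA per cell.

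**Figure D1:**
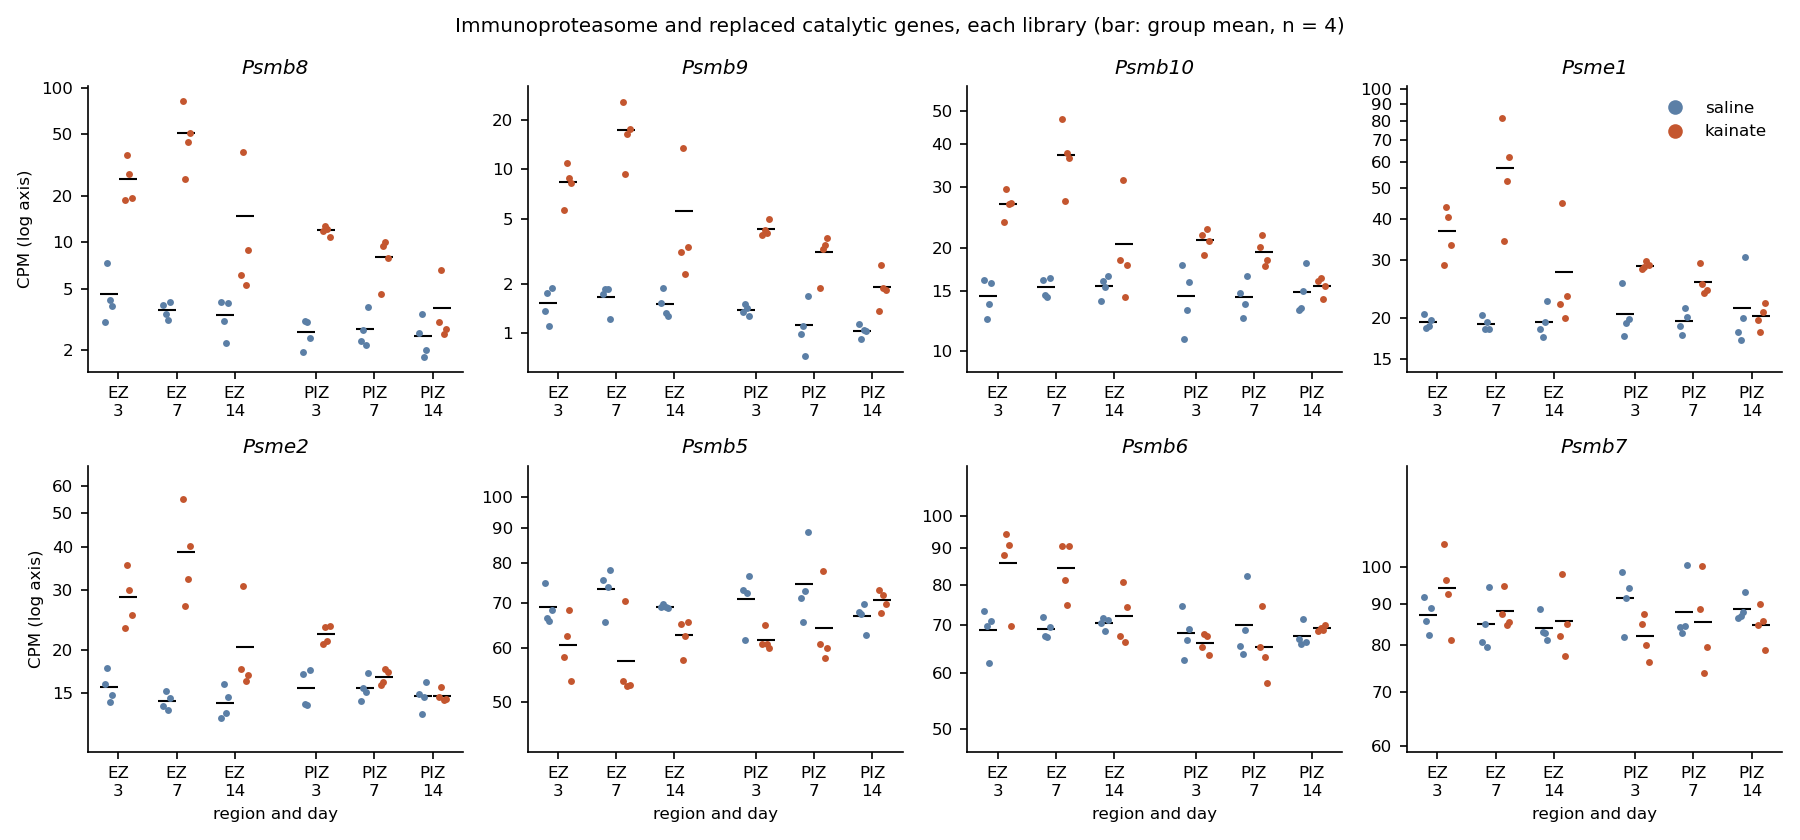
CPM (log axis) of the 5 immunoproteasome genes and of Psmb5, Psmb6 and Psmb7 in each of the 48 libraries, by region (EZ or PIZ) and day, with a bar at each group mean of 4 libraries. The immunoproteasome genes are highest in the EZ of kainate mice at day 7, where Psmb8 runs from 25.8 to 82.0 CPM, while the replaced subunits keep to a narrow range.

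At day 14 the values in the EZ were uneven, with 1 kainate mouse far above the others. Psmb8 was at 4.11, 3.1, 2.21 and 4.07 CPM with saline and 6.1, 38.4, 5.28 and 8.94 CPM with kainate, in mice 14, 27, 36 and 40. Mouse 27 stood above the other 3 kainate mice, whose values were still above all saline values. Psmb9 was at 1.53, 1.9, 1.33 and 1.27 CPM with saline and 3.13, 13.6, 2.3 and 3.34 CPM with kainate. The same mouse was again far above the rest, and the groups did not overlap. Psmb8 differed by 2.12 ± 0.42 (adjusted p = 0.00191) and Psmb9 by 1.90 ± 0.36 (adjusted p = 0.0012), and these were the 2 DEG of the 45, where 2.35% of all tested genes were called higher, 2.32% were DEG in that direction and 0.0655% were called lower. With limma-voom and with the compared groups alone, none of the 5 immunoproteasome genes was called at that day, and the median of the 5 was 0.304 with limma-voom (0.536 with edgeR). Without mouse 27 the differences fell to 1.01 for Psmb8 and 0.96 for Psmb9 (adjusted p = 0.386 and 0.252). Leaving out saline mouse 31 or 39 also ended both calls, and leaving out saline mouse 28 ended that of Psmb8, with differences of 1.97 to 2.23 for Psmb8 and 1.82 to 1.84 for Psmb9. Psme1, Psme2 and Psmb10 differed by 0.50 ± 0.19, 0.54 ± 0.16 and 0.41 ± 0.16, not called (adjusted p = 0.141, 0.0379 and 0.141). With 1 mouse left out at a time they ran from 0.161 to 0.629, 0.268 to 0.633 and 0.128 to 0.552. The microglia marker sum was 574, 2930, 502 and 721 CPM in the same 4 kainate mice, so mouse 27 also held the highest sum. Of the 8 markers, 6 were called higher at that day. The astrocyte sum was 2022, 8267, 1944 and 2698 CPM in these mice, with 2 of 5 markers called higher, and the T and NK cell sum was 1.46, 4.94, 0.45 and 0.668 CPM. The choroid plexus sum was 1.72 CPM in mouse 27 and 13.03 to 25.81 CPM in the other 3. The part of these cells in the result was not tested.

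On the uninjected side 2 of the 5 immunoproteasome genes, the catalytic pair of the MHC region, were called by edgeR at day 3 and none later. At that day, Psmb8 in the PIZ was at 1.95, 3.11, 3.03 and 2.42 CPM with saline and 11.8, 12.8, 12.2 and 10.9 CPM with kainate. The 4 kainate mice lay close together and well above saline. The difference was 2.18 ± 0.43 (adjusted p = 0.000322). Psmb9 was at 1.35, 1.51, 1.43 and 1.28 CPM with saline and 3.97, 4.28, 4.1 and 4.96 CPM with kainate. These groups did not overlap either, and the difference was 1.64 ± 0.36 (adjusted p = 0.000949). Both were DEG, where 7.12% of all tested genes were DEG in that direction.

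Psmb10, Psme1 and Psme2 differed in the PIZ at day 3 by 0.55 ± 0.16, 0.49 ± 0.19 and 0.52 ± 0.16 (adjusted p = 0.011, 0.0604 and 0.0155), each under 1.5-fold and not called. Every kainate value of these 3 genes was above every saline value at that day and side. How many of all tested genes separated in this way was not counted. Limma-voom with quality weights called all 5. Its share of all tested genes there is not given, so that count cannot be read as particular to these genes. Of the 8 microglia markers, 8 were called higher there, and their sum was 305 to 424 CPM with saline and 972 to 1198 CPM with kainate. The choroid plexus sum there was 22.5 to 28.8 CPM with saline and 10.9 to 16.6 CPM with kainate, with 0 of 3 called. The part of these cells in the result was not tested.

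At day 7 in the PIZ none of the 45 genes was called by edgeR, where 0.168% of tested genes were called higher and 0.0701% lower. At an unadjusted p under 0.05 there were 7 of the 45, of which 4 were immunoproteasome genes, and 3104 of all 21390 tested genes. At day 14 none was called by edgeR, DESeq2 or limma-voom, where edgeR called 0.00935% of tested genes higher and 0.00468% lower, and 2 had an unadjusted p under 0.05, against 1277 of all tested genes. At day 7, Psmb8 was at 2.3, 2.72, 2.18 and 3.81 CPM with saline and 4.62, 9.49, 10.1 and 7.87 CPM with kainate, in mice 21, 23, 26 and 35. The groups did not overlap, and mouse 21, the highest of the 4 in the EZ, was the lowest here. Its difference was 1.54 ± 0.43 (adjusted p = 0.0602), and that of Psmb9 was 1.46 ± 0.37 (adjusted p = 0.0352). With limma-voom both passed the threshold, as did 6.08% of tested genes, and with DESeq2 it was Psmb9, with 1.08% of tested genes. By day 14 Psmb8 was at 2.58, 3.46, 1.81 and 2.01 CPM with saline and 3.04, 6.64, 2.56 and 2.73 CPM with kainate, and the groups overlapped. The difference was 0.59 ± 0.44, not called, and it ran from 0.156 to 0.801 with 1 mouse left out at a time. Mouse 27 held the highest kainate value.

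The difference between sides was tested directly. At day 7 the kainate effect was larger in the EZ than in the PIZ for all 5 immunoproteasome genes: by 2.26 ± 0.60 for Psmb8, 1.91 ± 0.51 for Psmb9, 0.84 ± 0.23 for Psmb10, 1.19 ± 0.27 for Psme1 and 1.33 ± 0.22 for Psme2 (adjusted p = 0.00649, 0.00695, 0.00693, 0.00329 and 0.00135). With Psme2b, described below, 6 of the 45 genes were called in either direction, where 11.3% of all tested genes were. With each mouse as a block, which compares the sides within the mouse, the same 6 were called. These calls lay close to the threshold. Those of Psmb9, Psmb10 and Psme2b were lost with no filter on low counts, and those of Psmb9 and Psmb10 with the compared groups alone. Without mouse 21 none was left, without mouse 20, 34, 35 or 89 there was 1, and without mouse 33 there were 2. Without mouse 21 the differences of the 5 genes were between 0.72 and 1.75.

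None of the 45 genes was called by edgeR or DESeq2 in the difference between sides at day 3, where edgeR called 0.0655% of tested genes, or at day 14, where it called 0%. At day 3 the kainate effect on Psmb8 differed between sides by 0.29 ± 0.59 and that on Psmb9 by 0.82 ± 0.50. The constitutive subunits leaned to the EZ there: 31 of 31 values were positive, against 10947 of all 21390 tested genes, 26 had an unadjusted p under 0.05, and limma-voom called 17, where it called 13.5% of tested genes. Over all 45 genes 27 had such a p at day 3 and 4 at day 14, where limma-voom called 0. Of the 21390 tested genes, 3828 had such a p at day 3 and 1562 at day 14.

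The change of the effect between days was also tested. In the EZ it changed from day 3 to day 7 by 1.33 ± 0.57 for Psmb8 and 0.57 ± 0.22 for Psme2, and no member was called by edgeR or DESeq2 (edgeR called 0.145% of tested genes), with 8 at an unadjusted p under 0.05 (2565 of all tested genes) and 4 called by limma-voom, which called 6.58% of tested genes. From day 7 to day 14 it changed by -1.68 ± 0.58 for Psmb8, -0.87 ± 0.23 for Psmb10 and -0.90 ± 0.22 for Psme2 (adjusted p = 0.047, 0.0171 and 0.0152). By edgeR no member was called there, where 0.295% of tested genes were. At an unadjusted p under 0.05 there were 12, against 7081 of all 21390 tested genes, DESeq2 called 4 and limma-voom 11, where these tools called 6.96% and 35.5% of tested genes. With edgeR, without mouse 27 there were 8, without mouse 23 there were 5 and without mouse 26 there were 2. The shares of all tested genes in those fits are not given, so these counts cannot be read as particular to the members. In the PIZ none was called from day 3 to day 7 by edgeR, DESeq2 or limma-voom, where edgeR called 0.0234% of tested genes, and 3 had an unadjusted p under 0.05 (2270 of all tested genes). Between sides in saline mice, Psmb8 differed by 0.55 ± 0.26. No member was called there by the same 3 tools, where edgeR called 0.0234% of tested genes, and 2 had an unadjusted p under 0.05 (1908 of all tested genes).

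The constitutive subunits moved little. At day 3 in the EZ, 10 of 31 were called higher and 0 lower, against the 20.5% and 14.7% of all tested genes given above. None reached a 1.5-fold change, and the median of the 31 was 0.14 with 27 of 31 positive. The calls were 3 in the alpha ring (Psma1, Psma5 and Psma7), 4 in the beta ring (Psmb2, Psmb3, Psmb4 and Psmb6) and 3 in the 19S cap (Psmd1, Psmd3 and Psmd8). No ATPase was called at that day. Psma5, an alpha ring subunit, was at 54.0, 48.1, 51.2 and 51.0 CPM with saline and 73.0, 65.6, 65.6 and 55.5 CPM with kainate. The groups did not overlap, and mouse 44 was the lowest kainate mouse. The difference was 0.35 ± 0.08 (adjusted p = 0.000364). Psmb2, a beta ring subunit with no proteolytic site, was at 52.9, 47.8, 45.1 and 49.8 CPM with saline and 79.1, 69.6, 73.4 and 52.2 CPM with kainate. The highest saline value, that of mouse 18, was above the kainate value of mouse 44. The difference was 0.49 ± 0.11 (adjusted p = 0.000568).

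How many constitutive subunits were called at day 3 depended on the fit. With the saline and kainate EZ libraries of that day alone, none of the 31 was called, and without normalization beyond library size 23 were called higher, which also moved the median of all tested genes by 0.13. With 1 mouse left out at a time the count ran from 5 (without mouse 30, 37, 38 or 42) to 16 (without mouse 44). In the fits with all mice, no constitutive subunit was called lower at that day.

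At day 7 in the EZ, 3 of 31 constitutive subunits were called higher (Psmb2, Psmb6 and Psmd8) and 2 lower (Psmb5 and Psmc5), against the 25.9% and 19.7% given above. The median was 0.03, with 18 of 31 positive. With library size alone the split was 6 higher and 2 lower, with no filter on low counts it was 0 and 2, and with the compared groups alone it was 1 and 0. Without mouse 21 or 34 the 5 calls fell to 2, and without mouse 33 or 35 to 3. Psmc5, an ATPase of the 19S cap, was at 113, 102, 99.9 and 123 CPM with saline and 77.6, 97.2, 83.3 and 72.5 CPM with kainate. The groups did not overlap, and the difference was -0.41 ± 0.09 (adjusted p = 0.000144). Psmd8, a non-ATPase cap subunit, differed by 0.29 ± 0.09 (adjusted p = 0.00393), a call that was lost with no filter on low counts, with the compared groups alone, and without mouse 21, 33, 34 or 35. At day 14 in the EZ none of the 31 was called by edgeR, none had an unadjusted p under 0.05, and values lay between -0.15 and 0.15.

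In the PIZ at day 3 the constitutive subunits leaned the other way. There, 28 of 31 values were negative, with a median of -0.11, and 1 was called lower and 0 higher, where 4.18% of tested genes were called lower and 8.12% higher. The called gene was Psmd7, a cap subunit beside the deubiquitinase Psmd14, at 84.7, 73.6, 75.8 and 85.9 CPM with saline and 71.4, 71.3, 66.1 and 65.4 CPM with kainate. All 4 kainate values were below all saline values, and the difference was -0.22 ± 0.06 (adjusted p = 0.00654). Leaving out mouse 18, 41, 42 or 44 ended that call, as did no filter on low counts and the compared groups alone. With library size alone the median was -0.02 and 19 of 31 were negative, with none called. That scaling also moved the median of all tested genes, from 0.016 to 0.111. On that side and day the neuron markers summed to 3271 to 4566 CPM with saline and 2848 to 3163 CPM with kainate, without overlap and with 0 of 5 called, and 2 of 6 granule cell markers were called lower. Their part in the result was not tested. At day 7 in the PIZ none was called by edgeR, and 2 had an unadjusted p under 0.05. There, 27 of 31 values were negative with a median of -0.06, and with library size alone 14 of 31 were negative with a median of 0.011. The median of all tested genes moved from 0.009 to 0.081 with that scaling. Granule cell markers summed to 881 to 1081 CPM with saline and 378 to 805 CPM with kainate there. These sums did not overlap, 0 of 6 markers were called, and their part was not tested. At day 14 none was called either, and none had such a p.

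**Figure D2:**
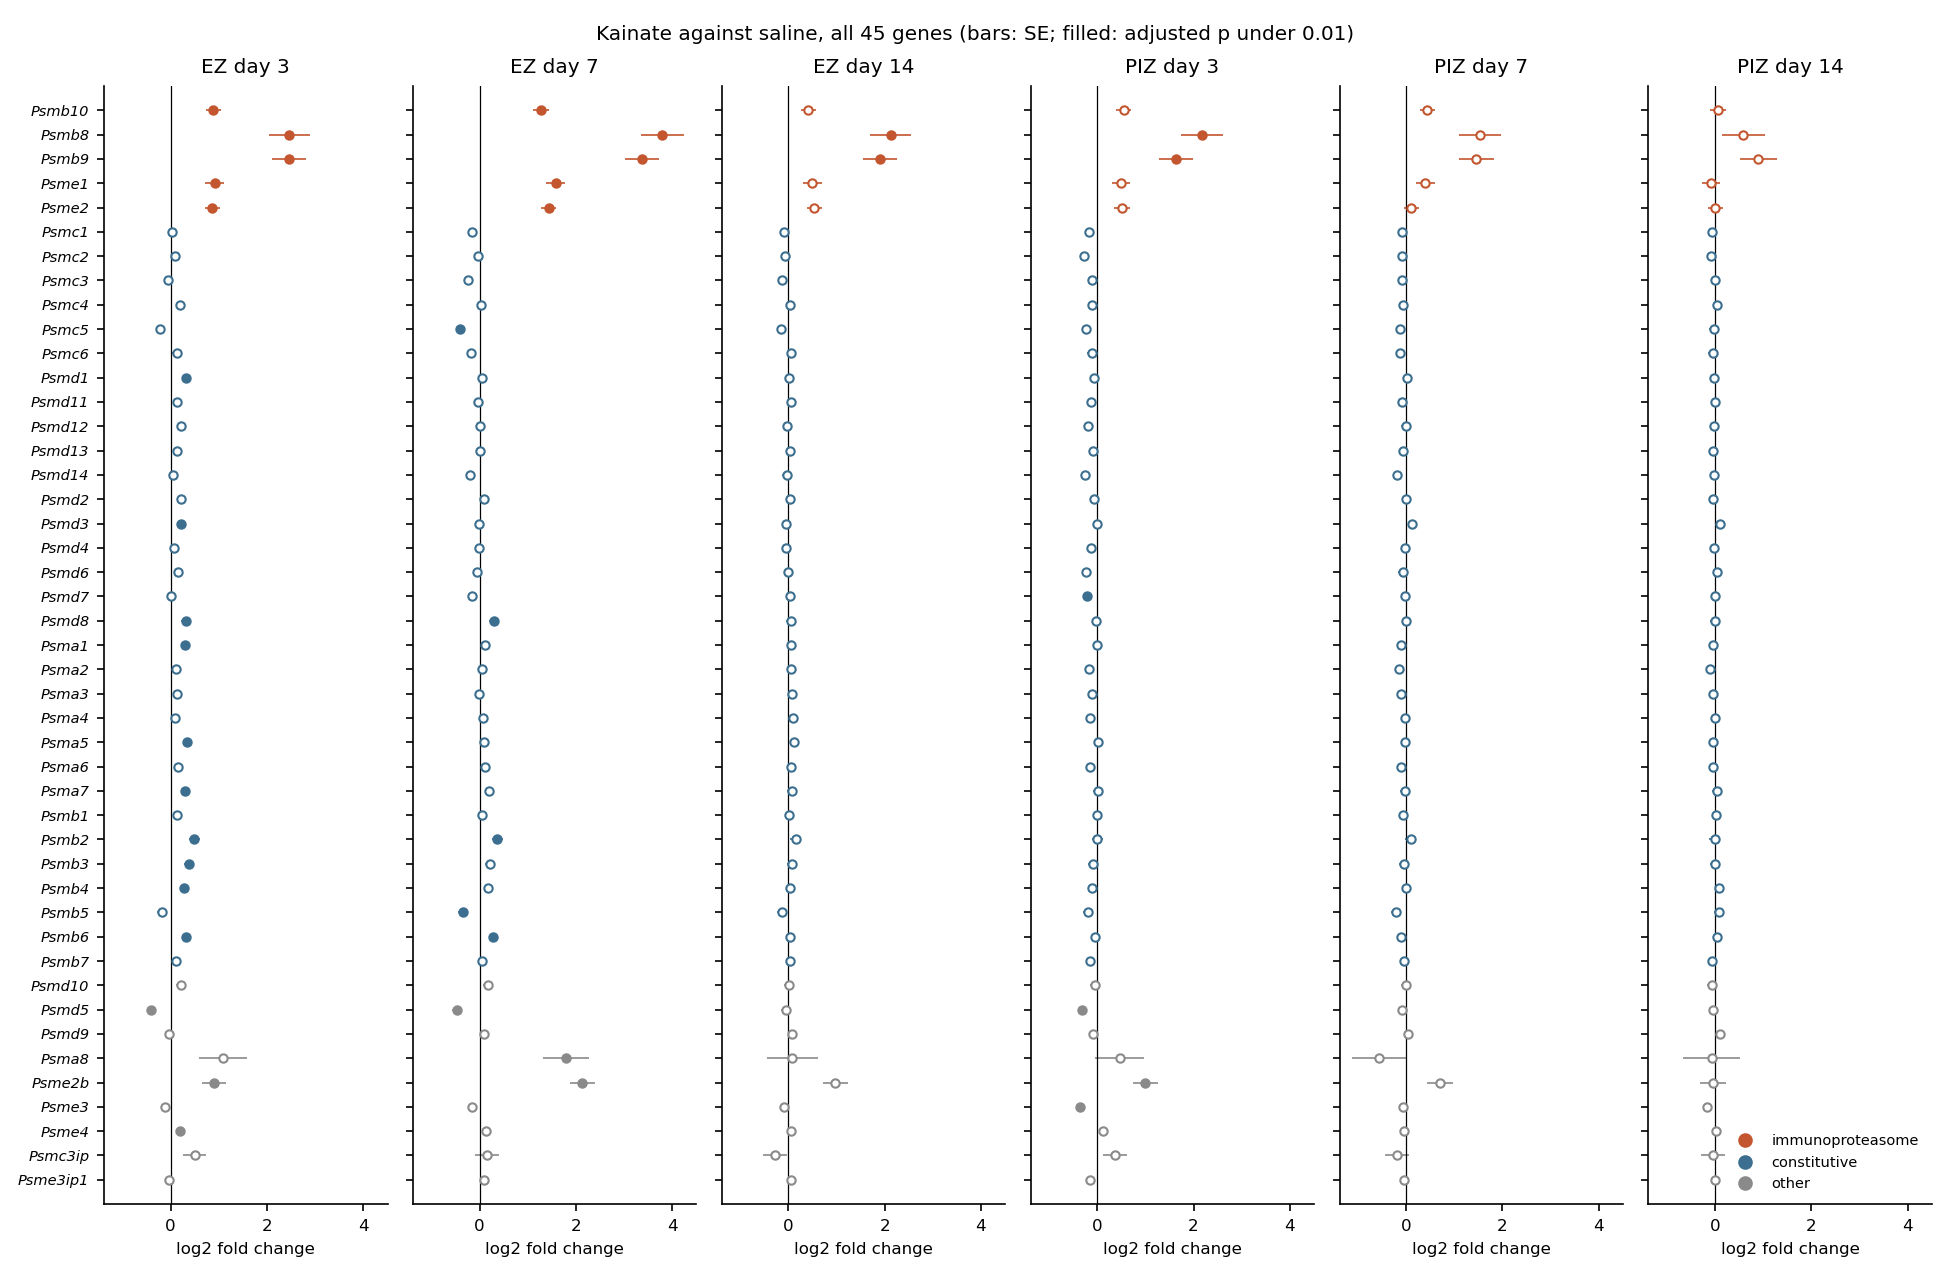
Log2 fold change of kainate over saline (bars, SE) of all 45 genes in the 6 comparisons of region and day, with 4 mice a group, coloured by immunoproteasome, constitutive and other genes and filled where the adjusted p was under 0.01. In the EZ the 5 immunoproteasome genes stand at 0.87 to 2.47 at day 3 and 1.28 to 3.80 at day 7, apart from the constitutive subunits, which lie between -0.41 and 0.49 at these days.

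The catalytic subunits that the immune forms replace did not move together. Psmb5, the constitutive chymotrypsin-like subunit, was at 75.7, 65.6, 73.9 and 78.2 CPM with saline and 53.7, 70.3, 52.9 and 53.0 CPM with kainate in the EZ at day 7. In 3 kainate mice it was below all saline values, and mouse 23, lowest for the immune genes, was the highest and reached into the saline range. It fell by 0.35 ± 0.09 (adjusted p = 0.00115), a call that was lost with the compared groups alone. Psmb6, the caspase-like subunit, was at 72.1, 67.7, 67.5 and 69.6 CPM with saline and 90.8, 81.1, 74.8 and 90.8 CPM with kainate. It was higher in every kainate mouse, by 0.29 ± 0.08 (adjusted p = 0.00307), and the call was lost without mouse 21, 34 or 35, with differences of 0.25 to 0.27, and also with no filter on low counts or the compared groups alone. At day 3, where the groups overlapped, it differed by 0.31 ± 0.08 (adjusted p = 0.00177), not called without mouse 37, 38 or 42. Psmb7, the trypsin-like subunit, was at 80.8, 85.1, 79.7 and 94.5 CPM with saline and 87.6, 94.6, 84.8 and 85.6 CPM with kainate, overlapping. It differed by 0.05 ± 0.08 (adjusted p = 0.61).

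Because levels of different genes can be set side by side only per length, the CPM of the 6 catalytic genes were divided by the length of the canonical transcript. The share of Psmb8, Psmb9 and Psmb10 in that sum was 7.61 ± 0.244% in the saline EZ and 26.7 ± 7.02% in the kainate EZ at day 7 (SD, n = 4). In the 4 kainate mice it was 34.7, 17.6, 27.6 and 26.9%, all above the saline values of 7.96, 7.57, 7.41 and 7.48%. At day 3 the share was 7.55 ± 0.254% and 17.3 ± 2.65%, again without overlap. At day 14 it was 10.3, 22.4, 8.6 and 10.4% in the kainate EZ, with mouse 27 above the other 3, and 7.59 ± 0.478% with saline. In the PIZ the share was 13.4 ± 0.732% with kainate against 6.77 ± 0.47% at day 3, 11.2 ± 1.002% against 6.67 ± 0.32% at day 7 and 7.84 ± 0.871% against 6.96 ± 0.685% at day 14. These are transcript shares, with no measure of protein or of assembled cores. Coding length in place of transcript length, an alternative added after the data were seen, gave 8.09 ± 0.26% and 30.4 ± 8.03% in the EZ at day 7.

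Taken pair by pair in the EZ at day 7, Psmb8 made up 4.74 ± 0.439% of Psmb8 plus Psmb5 with saline and 45.5 ± 14.0% with kainate. For Psmb9 in Psmb9 plus Psmb6 the share went from 1.82 ± 0.347% to 13.4 ± 4.06%. For Psmb10 in Psmb10 plus Psmb7 it went from 13.8 ± 0.853% to 27.1 ± 4.98%. By the mean, Psmb10 had the highest of these 3 shares with saline and Psmb8 with kainate on that side and day, and the order was the same by coding length. The summed level of the 31 constitutive subunits was 1347 ± 49.2 CPM per kb with saline and 1506 ± 156 with kainate in the EZ at day 3, overlapping, and at day 7 it was 1356 ± 73.2 CPM per kb with saline and 1378 ± 58.7 with kainate, within the spread. Ranks among the constitutive subunits depended on the length used. Psmb7 and Psmc5 were the most abundant and Psmb1 and Psmb2 the least in saline tissue by transcript length (75.4, 75.1, 16.8 and 12.5 CPM per kb), but by coding length Psmb1 was the highest of the 31.

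**Figure D3:**
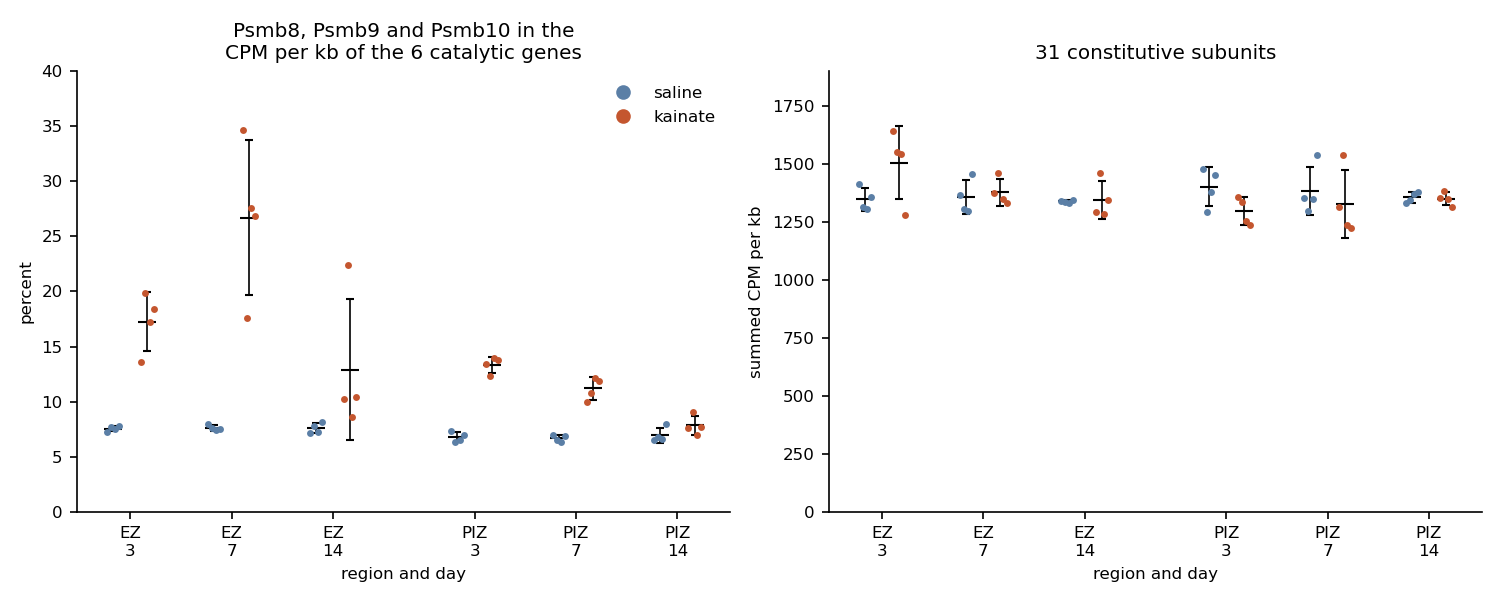
Left, the percent of Psmb8, Psmb9 and Psmb10 in the summed CPM per kb of the 6 catalytic genes, and right, the summed CPM per kb of the 31 constitutive subunits, in each library by region and day, with mean and SD of 4 libraries. The share runs from 17.6% to 34.7% in the kainate EZ at day 7, against 7.41% to 7.96% with saline, while the constitutive sum stays between 1224 and 1644 CPM per kb in all libraries.

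The other activators are Psme3 and Psme4, and Psme2 has a copy in the genome. Psme3, the nuclear PA28 gamma, was at 101, 89.1, 90.7 and 101 CPM with saline and 76.2, 82.0, 73.0 and 67.9 CPM with kainate in the PIZ at day 3. All 4 kainate values were below all saline values, and the difference was -0.35 ± 0.07 (adjusted p = 0.000464), while in the EZ at day 3 it differed by -0.12 ± 0.07 and was not called. Psme4, the PA200 activator, was at 73.8, 67.8, 66.4 and 70.5 CPM with saline and 84.2, 81.8, 75.0 and 77.4 CPM with kainate in the EZ at day 3. It was higher in every kainate mouse, by 0.19 ± 0.05 (adjusted p = 0.00351). That call was lost with limma-voom, with no filter on low counts, with the compared groups alone, and without mouse 29, 30, 37 or 38. Psme2b is a single-exon copy of Psme2 on chromosome 11 (48836181 to 48837017), with 712 of 717 coding bases (99.3%) identical to it. Since multimapped reads entered the counts by their primary alignment alone, reads of Psme2 and of this copy cannot be told apart with certainty. It was at 1.53, 1.17, 1.39 and 1.27 CPM with saline and 8.00, 3.62, 5.3 and 6.6 CPM with kainate at day 7 in the EZ, without overlap. Its EZ differences were 0.91 ± 0.25 at day 3 and 2.13 ± 0.26 at day 7, with 0.996 ± 0.26 at day 3 in the PIZ (adjusted p = 0.00291, 3.74e-08 and 0.00427). The day 3 call in the EZ was lost with the compared groups alone. The day 3 calls were lost without mouse 18, 37 or 38 on both sides, and in the PIZ also without mouse 41 or 42, with differences of 0.718 to 0.998.

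Psmd5, a chaperone that binds the 19S base during assembly, fell. In the EZ it was at 55.0, 50.9, 51.9 and 52.9 CPM with saline and 44.7, 37.8, 38.1 and 39.1 CPM with kainate at day 3, and at 48.8, 53.8, 47.5 and 58.1 CPM with saline against 33.3, 40.8, 40.9 and 34.6 CPM with kainate at day 7. Every kainate value was below every saline value at both days. Its EZ differences were -0.40 ± 0.09 (day 3) and -0.48 ± 0.09 (day 7), and at day 3 in the PIZ it differed by -0.31 ± 0.09 (adjusted p = 0.000264, 1.67e-05 and 0.00738). The PIZ call was lost with library size alone, with no filter on low counts, with the compared groups alone, and without mouse 18, 37, 41, 42 or 44. Psmd9 and Psmd10, the other chaperones of this kind, were not called by edgeR in any kainate comparison. Psma8, the alpha subunit typical of testis, was barely detected, at 0.204, 0.391, 0.413 and 0.282 CPM with saline and 2.27, 0.765, 0.546 and 0.954 CPM with kainate in the EZ at day 7. Kainate mouse 21 held the highest value, and the difference was 1.80 ± 0.48 (adjusted p = 0.00154). Without mouse 21 it was 1.21 and not called (adjusted p = 0.0364), and with the compared groups alone it was not called either. Psmc3ip, a recombination factor, and Psme3ip1, which carry the prefix without being subunits, were not called by edgeR in any comparison.

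Proteasome partners were read from 5 lists of 48 genes in all, every one of them tested. In the EZ, 20 were called higher and 4 lower at day 3, and 21 higher and 9 lower at day 7, against the 20.5% and 14.7% and the 25.9% and 19.7% of all tested genes given above. The peptide loading list, which carries proteasome products to MHC class I, gave 7 of 8 higher at day 3 and 8 of 8 at day 7, with medians of 1.37 and 1.85. Tap1, a subunit of the peptide transporter, is read from the opposite strand beside Psmb9, and the RefSeq windows of these genes share 275 bases. It was at 4.39, 3.34, 4.59 and 3.25 CPM with saline and 61.4, 18.9, 45.03 and 34.6 CPM with kainate in the EZ at day 7. The groups did not overlap, and the difference was 3.36 ± 0.37 (adjusted p = 2.05e-08). Tapbp, the tapasin that bridges transporter and class I molecule, differed by 1.76 ± 0.24 at day 3 and 2.52 ± 0.25 at day 7 (adjusted p = 6.86e-07 and 7.18e-09), with the smallest p of the 48 at both days.

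Of 12 transcription factors known to act on proteasome genes, 6 were called higher in the EZ at day 3 and 7 at day 7, none lower. Of all tested genes, 20.5% and 25.9% were called higher there and 14.7% and 19.7% lower. Stat3, a cytokine-activated factor, differed by 1.46 ± 0.21 at day 3 (adjusted p = 1.02e-06). Nfe2l2, the oxidative stress factor NRF2, differed by 1.42 ± 0.29 at day 3 and 2.27 ± 0.30 at day 7 (adjusted p = 0.000157 and 1.27e-07). Nfe2l1, which raises constitutive subunits when the proteasome is blocked, differed by -0.16 ± 0.08 and -0.04 ± 0.08 and was not called. Its level in the EZ at day 7 was 246, 201, 231 and 232 CPM with saline and 219, 237, 229.9 and 200.2 CPM with kainate, overlapping.

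The assembly chaperones gave 2 of 5 higher at each of these days, Pomp and Psmg1 at day 3 and Pomp and Psmg3 at day 7. Of all tested genes, 20.5% and 25.9% were called higher at these days. Pomp, the chaperone that matures newly built 20S cores, was at 61.0, 62.5, 60.8 and 61.9 CPM with saline and 90.3, 81.6, 75.8 and 85.7 CPM with kainate. It differed by 0.36 ± 0.09 at day 3 and 0.44 ± 0.09 at day 7 (adjusted p = 0.00158 and 0.000118). Psmf1, the PI31 regulator, differed by 0.17 ± 0.07 at day 7 and was not called. Of 11 proteasome-bound proteins, 1 was higher and 4 lower at day 7, and of 12 ubiquitin genes and shuttle factors 3 were higher and 5 lower, beside 25.9% and 19.7% of all tested genes. The bound protein that rose was Sem1, a small 19S component (0.52 ± 0.11), and those that fell were the deubiquitinases Usp14 (-0.49 ± 0.13) and Uchl5 (-0.51 ± 0.08), the ubiquitin ligase Ube3c (-0.53 ± 0.08) and the scaffold Ecpas (-0.25 ± 0.06). Of the genes that encode ubiquitin, Rps27a (0.38 ± 0.10) rose and Ubb (-0.29 ± 0.07) fell. The shuttle factors Rad23b (-0.30 ± 0.10), Ubqln2 (-0.69 ± 0.13) and Ubqln4 (-0.62 ± 0.08) and the segregase cofactor Ufd1 (-0.38 ± 0.08) fell too.

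In the other comparisons, 4 of the 48 partners were higher in the EZ at day 14 (Irf8, Nlrc5, Tap1 and B2m) and none lower, where 2.35% and 0.0655% of all tested genes were called. In the PIZ, 11 were higher and 3 lower at day 3, against 8.12% and 4.18% of all tested genes, and edgeR called none at day 7 or 14, with 10 and 0 of the 48 at an unadjusted p under 0.05 (3104 and 1277 of all 21390 tested genes). Nlrc5, the transactivator of MHC class I genes, differed by 3.86 ± 0.52 in the EZ at day 7 and 2.48 ± 0.53 in the PIZ at day 3 (adjusted p = 1.21e-07 and 0.000716).

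**Figure D4:**
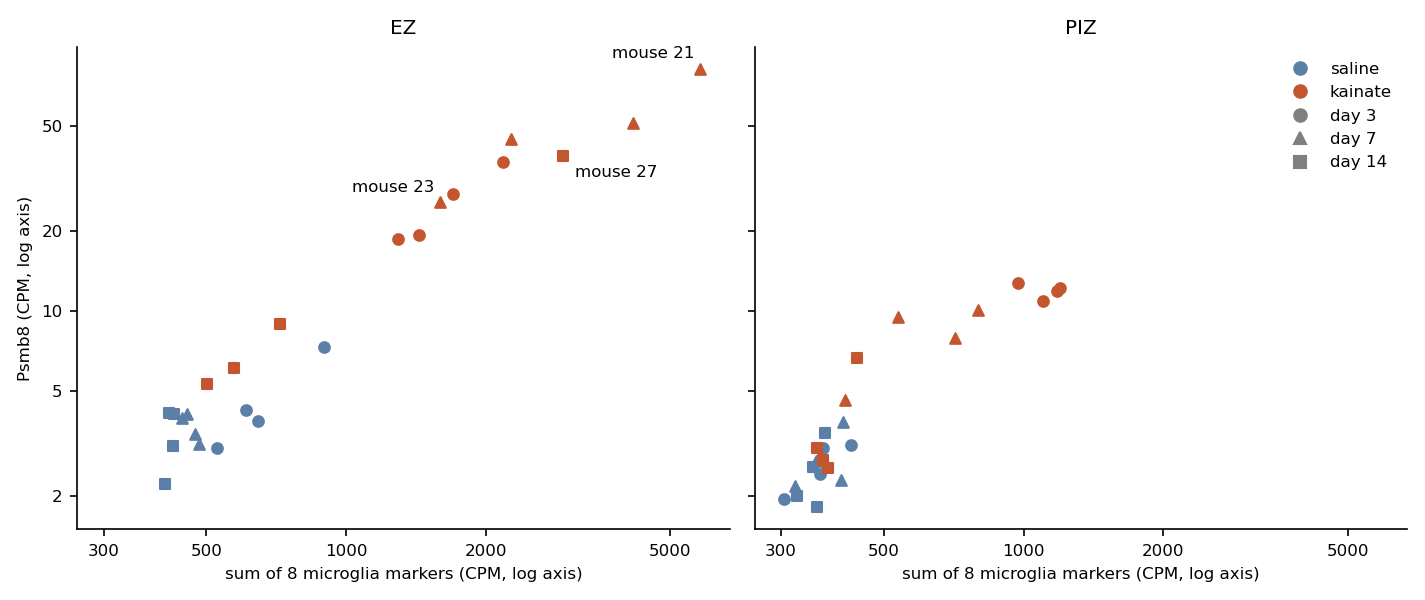
Psmb8 against the summed level of 8 microglia markers (both CPM, log axes) in each library, EZ left and PIZ right, coloured by injection and shaped by day. Libraries high in the marker sum tend to be high in Psmb8 in the EZ, where kainate mice 21, 23 and 27 are labelled. The order is not strict: mouse 26 at day 7 has a lower marker sum than mouse 27 at day 14 but more Psmb8. Both quantities come from the same library.

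In the plot of Psmb8 against the marker sum, the PIZ libraries of kainate mice at day 3 held 10.9 to 12.8 CPM of Psmb8 at marker sums of 972 to 1198 CPM, and those at day 7 held 4.62 to 10.1 CPM at 412 to 796 CPM. The saline EZ library of mouse 29 at day 3, the highest saline library for Psmb8 at 7.29 CPM, also had the highest saline marker sum, 895 CPM. The saline PIZ libraries at day 7 had marker sums of 322 to 409 CPM, below all 4 kainate libraries, and edgeR called none of the 8 markers. Astrocyte markers there summed to 1366 to 1525 CPM with saline and 1693 to 2719 CPM with kainate, without overlap and with 0 of 5 called. In the EZ at day 3, 3 of 5 astrocyte markers were called higher and 1 lower, with summed levels of 6468 to 7549 CPM with kainate and 2618 to 5005 CPM with saline. The EZ at day 7 had summed levels of 7038 to 9218 CPM with kainate and 1484 to 1930 CPM with saline, where 4 of 5 were called higher. In the PIZ at day 3, where immunoproteasome genes were also called, 3 of the 5 were called higher, with sums of 5878 to 6372 CPM with kainate and 1342 to 1609 CPM with saline. Their part in these results was not tested.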

How the data were processed

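RNA of the dentate gyrus was sequenced from both sides of 24 mice, giving 48 libraries in 12 groups of 4 set by region, injection and day as labelled. Poly-A libraries were stranded (TruSeq). The authors trimmed reads with fastp 0.20.1, aligned them to GRCm39 using HISAT2 2.2.1 and assigned them to genes with featureCounts of Subread 1.6.4, and deposited raw counts, not normalized. Reads with several alignments were kept at the primary one, and overlapping features were allowed, which leaves counts of close copies and overlapping genes uncertain. Psmb5 (109 bases, Mir686), Psmd1 (301 bases, Gm21972) and Psme2b (41 bases, 9930111J21Rik1) share exon bases with another gene of the same strand. Of the identifiers, 98.9% matched Gencode M39, which gave symbols, biotypes, lengths and GRCm39 positions.

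In R 4.3.3, edgeR 4.0.16 was fitted to all 48 libraries with 1 mean per group, after filterByExpr and TMM scaling (factors 0.934 to 1.10), and tested with its quasi-likelihood F test. Benjamini-Hochberg adjustment ran over all 21390 genes of a comparison. The SE was the absolute log2 fold change divided by the square root of F. Library totals had a median of 22108562 counts, and the script was tested on simulated data. The 2 libraries of a mouse had residual correlations from -0.0536 to 0.376, over 0.1 in 20 of 24 mice. Since both come from the same animal they are paired, and mouse entered as a block in an alternative. Other alternatives were DESeq2 1.42.0, limma-voom of limma 3.58.1 with quality weights, other scalings, filters and thresholds, the compared groups alone, and leaving out each mouse.

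The 45 genes and the lists were chosen with earlier results of these data known. Named were the immunoproteasome genes, the subunits they replace, other activators, prefix-only and tissue-restricted genes, up to 2 constitutive subunits of smallest p per direction and comparison, the most and least abundant per length, a few partners, and counts of 5 or fewer in full, except that a few genes of these lists are not reported here by name. Psmd5, Psmd9, Psmd10, Psme2b, Nlrc5 and the remaining names of calls at day 3 were added after values were seen.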

Additional observations from a re-analysis of the deposited data

Results flagged for a closer look

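In 96 groups of 4 libraries, tested for the 8 genes of the plot of levels by library, the highest or lowest library was checked for standing apart by its gap to the next one. Chance gives about 1 such group in 20. Mouse 27 stood apart in the kainate EZ at day 14 for Psmb8 (38.38 CPM), Psmb9 (13.59 CPM), Psme1 (44.82 CPM) and Psme2 (30.72 CPM), and in its PIZ for Psmb8 (6.641 CPM), where the other 3 mice held 2.56 to 3.04 CPM. Mouse 23 stood above the other kainate mice at day 7 for Psmb5 on both sides (70.32 CPM in the EZ and 78.0 CPM in the PIZ). The saline PIZ library of mouse 89 at day 7 was high for Psmb7 (100.5 CPM).

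The kainate effect at day 7 differed between EZ and PIZ in the edgeR quasi-likelihood interaction test for Psmb8 (2.263, adjusted p = 0.00649), Psmb9 (1.913, adjusted p = 0.00695), Psmb10 (0.842, adjusted p = 0.00693), Psme1 (1.187, adjusted p = 0.00329), Psme2 (1.329, adjusted p = 0.00135) and Psme2b (1.431, adjusted p = 0.00566). These are log2 differences, larger in the EZ, and without mouse 21 they lay between 0.72 and 1.75 with none called.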

How the results depend on the processing

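The 5 immunoproteasome genes were called at day 3 and day 7 in the EZ under every alternative run, and no called result reversed its direction. Several that were not called changed sign, among them the constitutive median. It turned to -0.047 with limma-voom in the EZ at day 14 (0.032 as reported). With library size alone it turned to 0.011 in the PIZ at day 7 (-0.06 as reported) and 0.007 at day 14 (-0.017 as reported). That scaling also moved the median of all tested genes there, by 0.072 to 0.081 and by 0.025 to 0.028. The constitutive median stayed below that of all tested genes at both days. With 1 mouse left out, Psma8 in the EZ at day 14 ran from -0.691 to 0.388 and Psme1 in the PIZ at day 14 from -0.18 to 0.139. The number of the 45 genes called moved more. Without scaling beyond library size it was 32 at day 3 in the EZ (18 as reported), and with the compared groups alone it was 6 at day 3, 8 at day 7 (13 as reported) and 0 at day 14 (2 as reported). With a fold change over 1.5 also required, it was 6, 7 and 2 across the EZ days and 3 at PIZ day 3 (6 as reported). At an adjusted p under 0.05 it was 4 in the EZ at day 14, 10 and 1 in the PIZ at day 3 and 7, and 7 for the change from day 7 to day 14. With limma-voom it was 0 in the EZ at day 14, 12 and 2 in the PIZ at day 3 and 7, 17 for the difference between sides at day 3, and 4 and 11 for the changes from day 3 to 7 and day 7 to 14 in the EZ. DESeq2 gave 1 in the PIZ at day 7 and 4 for the change from day 7 to day 14, and no filter on low counts gave 3 for the difference between sides at day 7 (6 as reported). The median of the constitutive subunits with library size alone was 0.263 in the EZ at day 3 (0.135 as reported), 0.111 at day 7 (0.03 as reported) and -0.015 in the PIZ at day 3 (-0.11 as reported). The median of all tested genes moved by 0.127, 0.081 and 0.095 in these comparisons with that scaling. The immunoproteasome median was 0.304 in the EZ at day 14 with limma-voom (0.536 as reported). In the PIZ it was 0.643 with library size alone and 0.612 with limma-voom at day 3 (0.547 as reported), and 0.134 with limma-voom at day 14 (0.062 as reported). With 1 mouse left out at a time, the count ran from 11 to 24 in the EZ at day 3, 9 to 15 at day 7, 0 to 3 at day 14, 3 to 7 in the PIZ at day 3, 0 to 8 for the difference between sides at day 7 and 0 to 8 for the change from day 7 to day 14, and the immunoproteasome median from 0.465 to 0.664 and from 0.012 to 0.168 in the PIZ at day 3 and 14. The cause of these moves was not tested.

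With the replicate block of mouse, 6 genes were called in the difference between sides at day 7, Psmb8 among them (2.16, adjusted p = 0.00275, edgeR quasi-likelihood test), and the block changed no call on the immunoproteasome genes or the subunits they replace. With unscaled counts summed over the saline libraries per kb, 31 of 31 constitutive subunits had the same rank as by CPM per kb. Low counts limit Psma8 and Psme2b, whose SE were the widest of the 45 with those of Psmb8 and Psmb9.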
